A study of Mus musculus with 43 samples.

Results

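The effect of dietary restriction on the skeletal muscle of Irs1 knockout (KO) mice was examined by comparing the restricted group (KO DR) with the group fed ad libitum (KO AL). Members were the entries of the deposited gene table that had the status OK and an FPKM of at least 1 in either of these groups, which gave 14272 of 42349 entries. FPKM is the number of sequenced fragments of a gene scaled to transcript length and to all mapped fragments. The mice were 15 months old females, and those labelled KO carry a knockout of Irs1 in all tissues. KO AL mice had unrestricted food throughout, and KO DR mice had received 30% less for 12 months, after a start at 10 weeks of age with steps of 10% and 20%. Wild-type (WT) mice of the same age and sex were fed in the same ways (WT AL and WT DR). Each KO muscle group held 3 libraries, WT DR held 3 and WT AL held 2. The table gives 1 FPKM per group with its 95% confidence interval and no value per library, so whether a level came from 1 mouse or from all mice of a group cannot be told, and the depth per library is unknown. At the limit of the member rule, Socs4 (FPKM 0.968 in KO AL and 1.00 in KO DR) was just inside, and Lpcat4 (0.9997 and 0.950) was just outside.

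Insulin receptor substrate 1, the product of Irs1, carries the signal of the insulin and insulin-like growth factor receptors to the kinases that control glucose uptake, protein synthesis and protein breakdown in muscle. Long-term restriction can lower insulin and the fuel available between meals, and muscle is known to answer by moving between the use of glucose and of fatty acids and by changing its rates of protein turnover. In the mice of the study, restriction had no significant effect on fasting insulin or on glucose in the fed state. Dissected muscle also holds blood, vessels, nerve, connective tissue and fat, so its RNA is a mixture, and a lower level of a transcript from such cells cannot be separated in bulk RNA into fewer cells and less RNA per cell.

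Irs1 (chr1:82233101-82291416, minus strand, GRCm38) was the targeted gene. Its FPKM was 5.72 in WT AL, 5.48 in WT DR, 6.31 in KO AL (95% interval 4.30 to 8.31) and 5.82 in KO DR (3.65 to 7.99). The groups labelled KO were therefore not lower than the groups labelled WT, and directions below are those of the labelled groups. Between the KO groups Irs1 differed by -0.12 on the log2 scale (SE 0.35). The muscle label held: Acta1, the skeletal muscle actin, had an FPKM of 35573 in KO AL and 45074 in KO DR, and Ckm, the muscle creatine kinase, had 20380 and 35401.

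Differences are log2 ratios of KO DR to KO AL. Each was tested with a Wald test whose standard error (SE) came from the intervals, with Benjamini-Hochberg adjustment over the 14008 members above 0 in both groups, and was called at an FDR of 10%. The remaining 264 members were listed at 0 in 1 of the groups, 160 of them in KO DR and 104 in KO AL, and were not tested. In all 70 entries were called (0.5% of those tested), of which 30 (0.214%) rose and 40 (0.286%) fell with restriction, and 282 (2.01%) had an unadjusted p under 0.05. With 0.5% called over all members, the absence of a call in a short gene list is not a result about that list. In WT muscle the same test called 197 of 14089 entries (1.4%), 112 of them higher (0.795%) and 85 lower (0.603%). There 712 entries (5.05%) had an unadjusted p under 0.05, 346 of them lower (2.46%). By its own test on reads the study reports many more changed genes for KO DR muscle than for KO AL or WT DR muscle. Its KO AL and WT DR changes were relative to WT AL, so its counts and these are of unlike comparisons. For genes that changed with restriction in WT, the study also reports that the changes tended to be larger in WT than in KO mice. The median difference over all tested members was 0.03 and the median SE was 0.75, so for a typical gene a doubling could not be called. The count depended on the SE. It was 34 when no SD was allowed under 20% of the FPKM, 6 with a t distribution, and 377 when the SD was divided by the square root of the number of libraries.

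**Figure D1:**
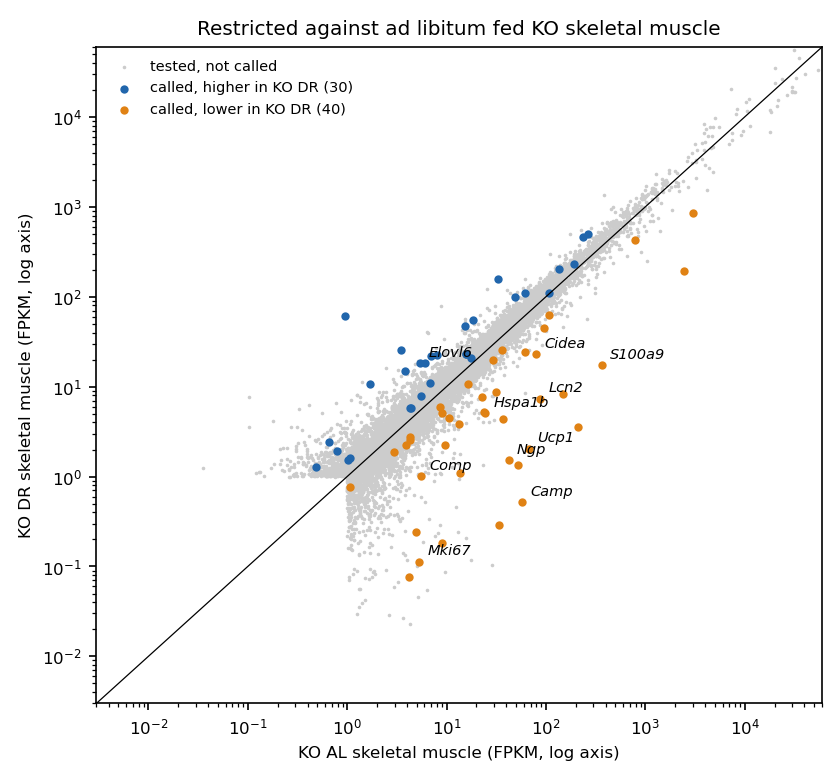
FPKM in KO AL (x axis) and KO DR (y axis) skeletal muscle for the 14008 tested members, both on log axes, with the line of equality. Blue points are the 30 entries called higher and orange points the 40 called lower in KO DR. Camp is among the points farthest from the line, at 57.8 in KO AL and 0.521 in KO DR.

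Among the largest decreases were genes of neutrophils and their precursors, which are made in bone marrow. Camp, which encodes the antimicrobial peptide cathelicidin, was listed at 0 in WT AL and had an FPKM of 1.00 in WT DR, 57.8 in KO AL (29.1 to 86.5) and 0.521 in KO DR (0 to 1.37). KO AL was the high group and its interval did not overlap those of the other 3. The difference between the KO groups was -6.79 (SE 1.23). Ngp, a neutrophil granule protein, had an FPKM of 0.129 in WT AL, 1.15 in WT DR, 42.1 in KO AL (0 to 108) and 1.53 in KO DR, and fell by 4.78 (SE 1.19). The interval of Ngp in KO AL reached 0, so its level in that group was not well determined.

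S100a9 and S100a8 lie close together on chromosome 3 and encode the partners of calprotectin, an abundant protein of the neutrophil cytoplasm. S100a9 had an FPKM of 3.13 in WT AL, 13.9 in WT DR, 364 in KO AL (64.4 to 663) and 17.3 in KO DR (4.48 to 30.1). Its difference was -4.40 (SE 0.80). S100a8 had 0.703, 5.79, 148 (0 to 298) and 8.32 in the same order and fell by 4.15 (SE 0.98). KO AL was the highest group for both genes. Its interval was clear of the other 3 for S100a9, but for S100a8 it reached 0 and covered them. Lcn2, which encodes the iron-siderophore binding protein lipocalin, had an FPKM of 1.84 in WT AL, 3.65 in WT DR, 87.5 in KO AL and 7.35 in KO DR, and fell by 3.57 (SE 0.71). Cd177, a neutrophil surface protein, had 0.0187, 0.0841, 4.23 and 0.0770, and fell by 5.78 (SE 1.48).

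A list of 27 neutrophil genes was written after these values were seen. Of its 25 tested members 6 were called lower, 15 had an unadjusted p under 0.05 and a negative difference (1.22% of all tested members did), and 0 of 25 had a positive difference (52.9% of all tested members did). The median was -4.13. These counts are a description, because 13 of the 25 reached an FPKM of 1 in KO AL alone and so had to be lower in KO DR. KO AL was the highest of the 4 muscle groups for 21 of them. Among members not called, Mpo (myeloperoxidase) had an FPKM of 17.5 in KO AL and 0.117 in KO DR (-7.22, SE 3.62), Elane (neutrophil elastase) had 6.62 and 0.339 (-4.29, SE 1.45) and Ltf (lactoferrin) had 11.7 and 1.62 (-2.86, SE 0.91). Ctsg, the cathepsin of the same granules, had 4.26 in KO AL and was listed at 0 in KO DR. Hp and Anxa1, which other tissues also make, differed by -0.12 (SE 0.53) and -0.63 (SE 2.00). In WT muscle 11 members could be tested, 0 were called, and the median was 0.99.

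Genes of megakaryocytes and red cell precursors gave 1 further call. Gp5, a platelet and megakaryocyte glycoprotein, was listed at 0 in WT AL and had an FPKM of 0.0910 in WT DR, 4.96 in KO AL (2.60 to 7.32) and 0.240 in KO DR, and fell by 4.37 (SE 1.08). Of 6 tested megakaryocyte genes 1 was called lower (0.286% of all tested members were) and the median was -2.22. An unadjusted p under 0.05 with a negative difference was found in 4 (1.22% over all tested members). Of 8 tested genes of red cell precursors 0 were called and 4 had an unadjusted p under 0.05 with a negative difference, with a median of -2.55. Hemgn, a nuclear protein of such precursors, had an FPKM of 5.12 in KO AL and 0.0463 in KO DR (-6.79, SE 2.09). A separate list of red cell genes had 9 tested members, of which 0 were called and 7 had a positive difference (52.9% of all tested members did). Their median was 0.34, but they ranged from -3.81 to 1.11. Of the 9, 1 had an unadjusted p under 0.05 with a negative difference, and 1 reached an FPKM of 1 in KO AL alone. Hba-a1, an alpha globin, had an FPKM of 226 in WT AL, 407 in WT DR, 3856 in KO AL and 8347 in KO DR, a difference of 1.11 (SE 1.71). Both KO intervals of Hba-a1 reached 0, so its direction was not determined.

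Among proliferation genes, Mki67, which encodes the Ki-67 protein of dividing cells, had an FPKM of 0.316 in WT AL, 0.121 in WT DR, 5.27 in KO AL (2.91 to 7.62) and 0.113 in KO DR (0 to 0.228). It fell by 5.54 (SE 0.80). Of 11 tested cell cycle genes Mki67 was the 1 called. A positive difference was found in 0 (52.9% over all tested members), and KO AL was the highest group for 11 of 11. Of the 11, 7 reached an FPKM of 1 in KO AL alone and so had to be lower in KO DR. These counts are therefore a description. Ccnb2, a mitotic cyclin, differed by -4.53 (SE 1.85) and Pcna, the replication clamp, by -0.08 (SE 0.52).

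Immunoglobulin segments gave 4 further decreases. Igkv2-109 had an FPKM of 2.05 in WT AL, was listed at 0 in WT DR, and had 52.1 in KO AL and 1.36 in KO DR, and fell by 5.26 (SE 0.99). Ighv2-9-1 fell by 6.84 (SE 1.80), Ighg3 by 5.61 (SE 1.42) and Igkv1-135 by 3.65 (SE 1.05), each with KO AL highest. Of 103 tested immunoglobulin entries 4 were called lower (0.286% of all tested members were) and 0 higher. A positive difference was found in 23 (52.9% over all tested members). The segments are short and alike, so reads may be shared among them. Igkc, the constant region of the kappa chain, had 433, 147, 905 and 311 over the 4 groups (-1.54, SE 0.65) and was not called. The list of B and plasma cell genes did not follow the segments. Of 8 tested 0 were called and 6 had a positive difference (52.9% of all tested members did). The median was 0.96, with 3 of the 8 reaching an FPKM of 1 in KO DR alone. Cd79a and Cd79b, the signalling chains of the B cell receptor, differed by 0.94 (SE 0.91) and 1.05 (SE 0.96), and Igkc and Ighm were the 2 with a negative difference.

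Bone and cartilage genes gave 2 decreases. Comp, a matrix protein of cartilage and tendon, had an FPKM of 0.610 in WT AL, 1.38 in WT DR, 5.50 in KO AL (3.23 to 7.77) and 1.01 in KO DR (0.250 to 1.78). It fell by 2.44 (SE 0.62). Ctsk, the collagen-cleaving protease of osteoclasts, had 3.36, 3.58, 9.66 and 2.26 and fell by 2.09 (SE 0.60), a call that was lost when no SD was allowed under 20% of the FPKM. Bglap and Bglap2, which encode osteocalcin of bone-forming cells, had FPKM values of 20.5 and 13.3 in KO AL and were listed at 0 in the other 3 muscle groups. Ibsp, a bone matrix sialoprotein, had 3.67 in KO AL and 0.0268 in KO DR (-7.10, SE 2.97). Of 18 genes on this list, also written after the values were seen, 7 could be tested. Of the 7, 2 were called lower (0.286% of all tested members were) and 6 had their highest level in KO AL. Among the 7, 1 reached an FPKM of 1 in KO AL alone and so had to be lower in KO DR. Acp5, an acid phosphatase that osteoclasts share with macrophages, had 33.4 in KO AL and 33.6 in KO DR (0.01, SE 0.51).

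Of the 70 called entries 58 belonged to none of the neutrophil, red cell precursor, megakaryocyte, proliferation and immunoglobulin groups. When the test was adjusted without those groups, 56 of the 58 were called, 29 of them higher and 27 lower. Of the 40 decreases KO AL was the highest of the 4 muscle groups in 34. All 20 decreases of 2 or more on the log2 scale had KO AL highest, and in 15 of these it was at least 4 times each other group. A decrease of that size already sets KO AL at least 4 times above KO DR. Choosing entries with a high KO AL also favours it over the WT groups, so these counts are a description. Cells of bone and marrow are not part of muscle fibres, and the part that such cells took in the KO AL libraries was not tested. Several of the tested genes reached an FPKM of 1 in KO AL alone and so had to be lower in KO DR. They included 3 of the 6 megakaryocyte, 6 of the 8 red cell precursor and 7 of the 11 cell cycle entries. The same held for 38 of the 103 immunoglobulin and 1 of the 7 bone and cartilage entries. Sums over all listed genes do not depend on that filter. They are still a description, because all the lists summed here except cell cycle were written after the values were seen. The neutrophil genes summed to an FPKM of 185 in WT AL, 122 in WT DR, 921 in KO AL and 112 in KO DR. In the same order the sums were 15.3, 19.6, 69.3 and 19.2 for megakaryocyte genes and 6.66, 20.0, 45.1 and 21.4 for red cell precursor genes. For cell cycle genes the sum was 51.8 in KO AL and at most 30.0 in the other groups, and the 4 sums were 38.3, 20.3, 106 and 45.3 for bone and cartilage genes. KO AL had the highest sum in each of these lists. No sum was tested.

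**Figure D2:**
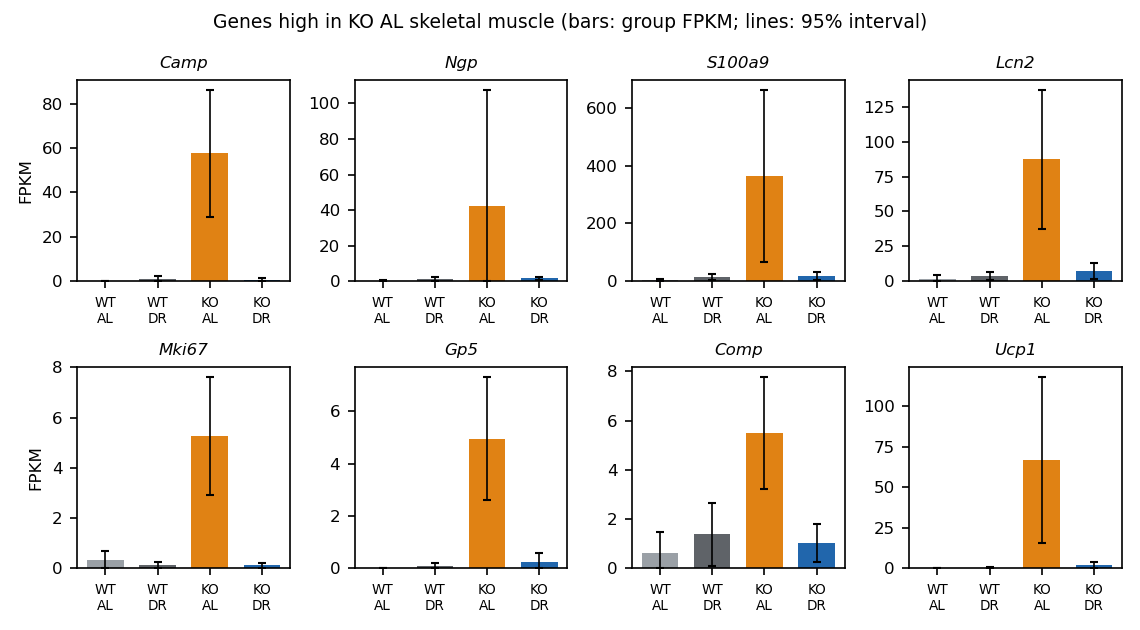
FPKM (y axes, linear from 0) of 4 neutrophil genes, the proliferation gene Mki67, the platelet gene Gp5, the matrix gene Comp and the brown fat gene Ucp1 in the 4 skeletal muscle groups; bars are the group values and lines the authors' 95% intervals. KO AL is the tallest bar in each panel, and for Ngp its interval reaches 0.

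Ucp1 and Cidea, genes of brown fat, fell as well. Ucp1 (chr8:83290352-83298452, plus strand, GRCm38) encodes the uncoupling protein by which brown fat makes heat. It had an FPKM of 0.0897 in WT AL, 0.230 in WT DR, 66.9 in KO AL (15.8 to 118) and 2.05 in KO DR (0.111 to 3.98), and fell by 5.03 (SE 0.88). Cidea, a lipid droplet protein of brown and beige fat, had 2.16, 2.07, 79.1 (45.3 to 113) and 22.8 (12.2 to 33.4) and fell by 1.79 (SE 0.45). KO DR still lay above both WT groups for Cidea, with intervals that did not overlap theirs. In white adipose tissue Ucp1 had an FPKM of 9.87 in KO AL and 4.48 in KO DR, and the KO AL interval there (3.32 to 16.4) overlapped that of KO AL muscle.

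Of the 6 tested brown fat genes 2 were called (0.5% of all tested members were), both lower. A positive difference was found in 2 (52.9% over all tested members), and the median was -1.54. Of the 6, 1 reached an FPKM of 1 in KO AL alone and 1 in KO DR alone, so the filter set their directions. Among the uncalled, Otop1, a proton channel, had an FPKM of 1.02 in KO AL and 0.416 in KO DR (-1.29, SE 0.99), and Pdk4, a pyruvate dehydrogenase kinase that muscle also makes, had 1043 and 248 (-2.07, SE 2.07). Elovl3, an elongase of brown fat, had an FPKM of 1.30 in KO AL and 2.09 in KO DR (0.69, SE 0.61), and Zic1, a transcription factor of brown fat precursors, had 0.843 and 2.60 (1.62, SE 2.06). Among general adipocyte genes, of 16 tested 0 were called (0.5% of all tested members were), and the median was 0.39. A positive difference was found in 13 (52.9% over all tested members). The list summed to an FPKM of 5899 in KO AL and 7967 in KO DR. Adipoq, the hormone adiponectin of fat cells, had 198 in KO AL (92.5 to 304) and 326 in KO DR (91.4 to 561).

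Among called single genes with a standard symbol, Elovl6 had the largest increase. It encodes the elongase that lengthens palmitate to stearate in the endoplasmic reticulum. Its FPKM was 1.76 in WT AL (0.896 to 2.63), 11.5 in WT DR (8.13 to 14.9), 5.44 in KO AL (3.17 to 7.70) and 18.3 in KO DR (11.8 to 24.7). Restriction raised Elovl6 by 1.75 in KO (SE 0.39) and by 2.71 in WT (SE 0.41), and both were called. The KO response less the WT response was -0.96 (SE 0.57) and was not called, so the responses were not shown to differ. Elovl6 was the 1 standard-symbol gene among the increases that was still called when no SD was allowed under 20% of the FPKM.

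Elovl6 belongs to fatty acid synthesis, the pathway that insulin and carbohydrate drive through the transcription factors SREBP-1c and ChREBP. Of 22 tested genes of the pathway Elovl6 was the 1 called higher and 0 were called lower. Another 4 had an unadjusted p under 0.05 with a positive difference (0.792% of all tested members did). A positive difference was found in 17 of 22 (52.9% over all tested members), and the median was 0.66. Of the 22, 1 reached an FPKM of 1 in KO DR alone and so had to be higher there. Acly, which makes cytosolic acetyl-CoA from citrate, had an FPKM of 8.06 in WT AL, 16.7 in WT DR, 8.44 in KO AL and 23.5 in KO DR (1.48, SE 0.55). Slc25a1, the mitochondrial citrate exporter, had 8.21, 19.2, 21.7 and 63.0 (1.54, SE 0.56).

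Thrsp, a nuclear protein tied to lipid synthesis that the study names for restricted KO muscle, had an FPKM of 15.4 in WT AL, 59.7 in WT DR, 66.2 in KO AL (34.4 to 98.0) and 124 in KO DR (88.4 to 159). Its difference between the KO groups was 0.90 (SE 0.40). KO DR was the highest and WT AL the lowest of the 4 groups for Thrsp and Elovl6. Fasn, the fatty acid synthase, had 35.2, 172, 176 and 497, and Scd1, the stearoyl-CoA desaturase, had 260, 329, 281 and 577. Neither was called, with both KO intervals of Fasn reaching 0 and a difference of 1.04 (SE 0.76) for Scd1. Gpam and Dgat2, which catalyse the first and the last step of triglyceride synthesis, differed by -0.23 (SE 0.54) and 0.28 (SE 0.55). Of 21 tested sterol synthesis genes 0 were called (0.5% of all tested members were), and 15 had a positive difference (52.9%).

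Promoters are shown for Elovl6, which rose, for Thrsp, and for Pdp2, a pyruvate dehydrogenase gene described below that fell in KO and rose in WT. Each is a window of 300 bases that holds the gene's start near its end, from RefSeq (GRCm38.p6), written in the direction of the gene. Capitals mark matches, on either strand, to the E-box CACGTG, to the sterol regulatory element TCACNCCAC, or to the CCAAT box CCAAT.

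Elovl6 (chr3:129532136-129532435, plus strand): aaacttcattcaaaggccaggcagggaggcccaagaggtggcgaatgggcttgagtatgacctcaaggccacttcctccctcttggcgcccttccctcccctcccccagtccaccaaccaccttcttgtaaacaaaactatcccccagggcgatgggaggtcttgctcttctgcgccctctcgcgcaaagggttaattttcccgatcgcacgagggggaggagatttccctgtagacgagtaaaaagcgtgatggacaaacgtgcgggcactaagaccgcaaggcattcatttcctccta

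Thrsp (chr7:97417501-97417800, minus strand): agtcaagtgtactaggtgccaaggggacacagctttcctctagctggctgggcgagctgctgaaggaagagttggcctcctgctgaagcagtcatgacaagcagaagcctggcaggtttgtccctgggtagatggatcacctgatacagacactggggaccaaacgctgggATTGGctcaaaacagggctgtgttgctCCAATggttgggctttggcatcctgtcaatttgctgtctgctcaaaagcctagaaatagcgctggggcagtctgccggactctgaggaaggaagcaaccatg

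Pdp2 (chr8:104591222-104591521, plus strand): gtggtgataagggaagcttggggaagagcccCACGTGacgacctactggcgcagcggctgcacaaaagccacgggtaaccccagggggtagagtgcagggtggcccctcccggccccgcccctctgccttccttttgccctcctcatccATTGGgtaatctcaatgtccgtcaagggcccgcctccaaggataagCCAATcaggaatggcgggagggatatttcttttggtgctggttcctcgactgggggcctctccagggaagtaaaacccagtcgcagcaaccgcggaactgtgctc

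The Elovl6 window held 0 matches to the 3 motifs. Thrsp held 2 CCAAT boxes, and Pdp2 held 1 E-box and 2 CCAAT boxes. Over 32851 mouse promoters of this length an E-box was present in 7.15%, the sterol element in 1.24% and a CCAAT box in 37.4%.

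**Figure D3:**
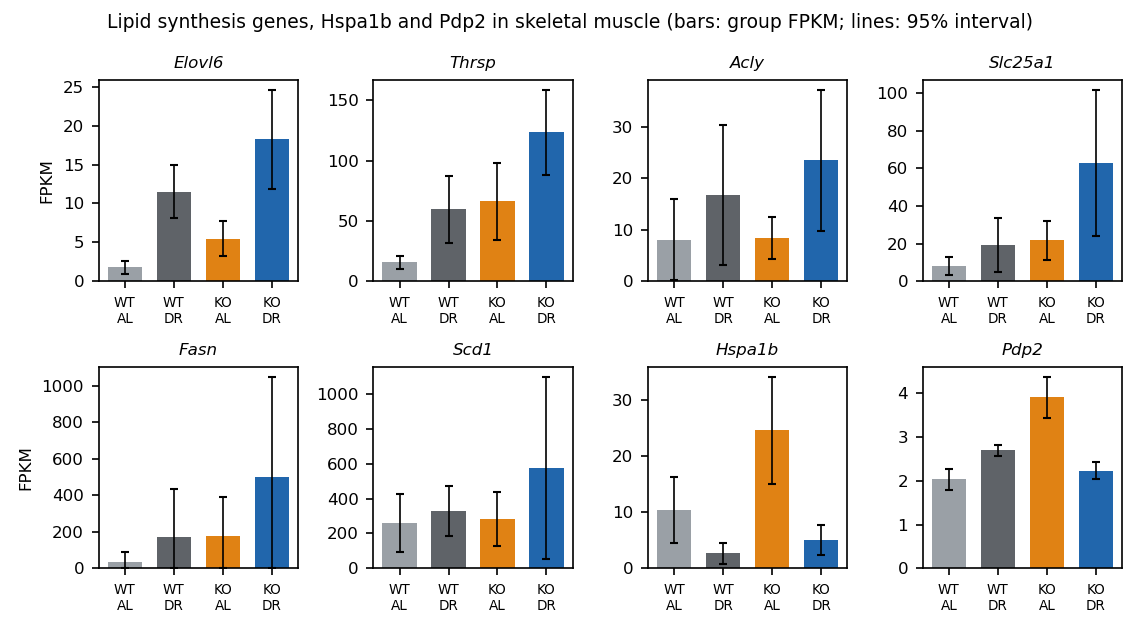
FPKM (y axes, linear from 0) of 6 genes of lipid synthesis, the heat shock gene Hspa1b and the phosphatase gene Pdp2 in the 4 skeletal muscle groups; bars are the group values and lines the authors' 95% intervals. KO DR is the tallest bar for the 6 lipid genes, and KO AL is the tallest for Hspa1b (24.7) and Pdp2 (3.91).

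Of 44 tested genes of glucose uptake, glycolysis, glycogen and pyruvate oxidation 1 was called, where 0.5% of all tested members were. A positive difference was found in 26 (52.9% over all tested members), and the median was 0.12. The call was Pdp2, which encodes a phosphatase that activates pyruvate dehydrogenase and so lets glucose carbon enter the mitochondria. Its FPKM was 2.03 in WT AL (1.79 to 2.28), 2.70 in WT DR (2.57 to 2.83), 3.91 in KO AL (3.44 to 4.37) and 2.23 in KO DR (2.03 to 2.42). It fell by 0.81 in KO (SE 0.11) and rose by 0.41 in WT (SE 0.09), and the responses differed by -1.22 (SE 0.14). The intervals behind Pdp2 were narrow, with SDs of 5.95% and 4.41% of the FPKM in the KO groups against a median of 37.8% and 35.0% over the members. With no SD allowed under 20% neither the KO call nor the call of the difference stood.

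Pank1, the first enzyme of coenzyme A synthesis, had an FPKM of 9.77 in WT AL, 6.95 in WT DR, 13.4 in KO AL (9.45 to 17.3) and 3.89 in KO DR (2.07 to 5.70). It fell by 1.78 (SE 0.40), and the call stood with the minimum SD. Fitm2, which promotes storage of fat in droplets, had 25.7, 29.8, 36.6 and 25.9 and fell by 0.50 (SE 0.07), a call that needed its narrow intervals. Of 38 tested genes of fatty acid uptake and oxidation 0 were called, where 0.5% of all tested members were. A positive difference was found in 8 (52.9% over all tested members), and 4 had an unadjusted p under 0.05 with a negative difference (1.22%). These 4 were Acot1 (-1.60, SE 0.52) and Acot2 (-1.37, SE 0.41), which cleave acyl-CoA, the lipid droplet gene Plin5 (-1.39, SE 0.49) and the fatty acid transporter Cd36 (-0.59, SE 0.23). Their WT differences were -1.12, -1.39, -1.01 and -0.76. Pdk4, whose levels are given with the brown fat genes, opposes Pdp2.

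The heat shock gene Hspa1b, one of a pair of stress-inducible HSP70 genes that lie together on chromosome 17, had an FPKM of 10.4 in WT AL (4.53 to 16.4), 2.65 in WT DR (0.739 to 4.57), 24.7 in KO AL (15.1 to 34.2) and 5.09 in KO DR (2.44 to 7.74). It fell by 2.28 in KO (SE 0.47). Its WT difference was -1.98 (SE 0.66) and was not called. The KO response less the WT response was -0.30 (SE 0.81) and was not called, so the responses were not shown to differ. Hspa1a, its near-identical copy, had 8.31, 3.17, 16.3 and 6.07, and since the copies can share reads their separate values are uncertain. Of 29 tested heat shock and chaperone genes Hspa1b was the 1 called, where 0.5% of all tested members were. A positive difference was found in 9 (52.9% over all tested members). The abundant chaperone Hsp90ab1 had 646 in KO AL and 657 in KO DR (0.02, SE 0.87).

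Genes that regulate growth and transcription were among the decreases. Pim1, a serine/threonine kinase, had an FPKM of 10.4 in WT AL, 5.87 in WT DR, 10.5 in KO AL and 4.51 in KO DR and fell by 1.22 (SE 0.18). Sdc4, a cell surface proteoglycan, fell by 0.85 (SE 0.23) from 9.06 to 5.03. Btg1, an antiproliferative gene, fell by 0.65 (SE 0.18), and it also fell in WT, by 1.23 (SE 0.27). Irf2bp2, a transcriptional corepressor, fell by 0.66 in KO (SE 0.14) and by 0.46 in WT (SE 0.14), and Six4, a homeobox gene of the muscle lineage, fell by 0.75 (SE 0.11). None of these 5 calls stood when no SD was allowed under 20% of the FPKM.

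Genes of muscle protein breakdown gave no call. Fbxo32 (atrogin-1) had an FPKM of 196 in WT AL, 64.5 in WT DR, 147 in KO AL (43.6 to 250) and 45.9 in KO DR (20.8 to 70.9), a difference of -1.68 (SE 0.64). Trim63 (MuRF1), the other muscle ubiquitin ligase, had 860, 143, 315 and 111 (-1.51, SE 0.67). Both are targets of the FOXO factors that insulin signalling restrains. Foxo1 had 6.15 in KO AL and 4.28 in KO DR (-0.52, SE 0.37). Of 26 tested atrophy and growth genes 0 were called (0.5% of all tested members were), with a median of -0.24. A positive difference was found in 4 (52.9% over all tested members). Eif4ebp1, a brake on translation, was an exception at 0.97 (SE 0.44), with 69.2 in KO AL and 135 in KO DR.

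Insulin pathway genes gave 0 calls in 35 tested, near the share of 0.5% over all tested members, with a median of -0.08. Slc2a4, the insulin-responsive glucose transporter, had an FPKM of 218 in KO AL and 233 in KO DR (0.10, SE 0.72), and Akt2 had 98.6 and 100.4 (0.03, SE 0.73). Igfbp5, a binding protein of insulin-like growth factors, had 30.3, 45.7, 20.5 (13.7 to 27.3) and 42.5 (29.1 to 56.0). Its difference of 1.05 (SE 0.33) was not called although the KO intervals did not overlap.

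Fibre genes showed no called change, where 0.5% of all tested members were called. Of 14 tested fast-fibre genes 12 had a positive difference (52.9% of all tested members did), with a median of 0.50. Of 13 slow-fibre genes 2 did, with a median of -0.14. Myh4, the fast myosin, had an FPKM of 5576 in KO AL and 7653 in KO DR, and Myh7, the slow myosin, had 84.8 and 83.6. In WT the slow-fibre median was -1.36. Csrp3, a stretch-sensing protein of the sarcomere, had 163 in KO AL and 61.0 in KO DR (-1.42, SE 0.51).

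The study names the ribosomal protein genes Rpl17, Rps26 and Rpl31 as raised in KO AL, WT DR and KO DR muscle alike. That was by its own test on reads, with KO AL and WT DR set against WT AL. Here KO DR was set against KO AL, and none of these genes was called. Rpl17 had an FPKM of 14.3 in WT AL, 25.6 in WT DR, 21.2 in KO AL and 29.3 in KO DR, a KO difference of 0.47 (SE 0.61). Rps26 had 123, 193, 314 and 429 (0.45, SE 0.69), and Rpl31 had 14.5, 56.8, 35.2 and 60.4 (0.78, SE 1.24). Each was lowest in WT AL. Of 35 tested large-subunit genes 32 had a positive difference, and of 29 small-subunit genes 27 did (52.9% of all tested members did). The median was 0.37 for each. For the 3 named genes the SE was larger than the difference. The nuclear genes of respiratory complex I had a median of -0.01 over 35 tested, and the 6 tested mitochondrially encoded genes all had negative differences with a median of -0.61. Of these, mt-Co1, a cytochrome oxidase subunit, had an FPKM of 29935 in KO AL and 19604 in KO DR.

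Clock genes gave no call in KO muscle. Arntl, the activator of the clock, had an FPKM of 9.07 in WT AL, 3.05 in WT DR, 7.28 in KO AL and 2.30 in KO DR (-1.66, SE 0.58). Dbp, which the clock drives in the opposite phase, had 26.7, 125, 25.8 and 122 (2.24, SE 1.06), and Per3 had 7.30, 13.4, 4.31 and 11.0 (1.35, SE 0.57). The KO response less the WT response was -0.09 (SE 0.85) for Arntl and 0.01 (SE 1.31) for Dbp, which leaves room for differences of more than 1. Of 19 tested clock genes 0 were called (0.5% of all tested members were) and 15 had a positive difference (52.9%).

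Genes of other cells in the dissected tissue gave few calls. Macrophage genes had a median of -0.88 over 18 tested, 1 of which reached an FPKM of 1 in KO AL alone. The 2 called (0.5% of all tested members were) were S100a8 and S100a9, which neutrophils share. Lyz2, the lysozyme of both cell types, had an FPKM of 91.5 in KO AL and 29.2 in KO DR (-1.65, SE 0.65). Of 11 tested Schwann cell genes 10 had a positive difference (52.9% of all tested members did) and 0 were called. Of the 11, 1 reached an FPKM of 1 in KO DR alone and so had to be higher there. Mbp, a myelin protein, had 36.4 in WT AL, 6.46 in WT DR, 25.4 in KO AL (10.2 to 40.6) and 74.7 in KO DR (28.8 to 121), a KO difference of 1.55 (SE 0.62). The 17 tested liver genes all had a positive difference (52.9% of all tested members did), with a median of 0.80 and 0 called, at low levels. Of these 17, 3 reached an FPKM of 1 in KO DR alone and so had to be higher there. Alb (albumin) had 13.6 in KO AL and 23.3 in KO DR against 987 in WT DR muscle. Of 42 tested matrix genes 0 were called (0.5% of all tested members were) and 8 had a positive difference (52.9%). Of these 42, 7 reached an FPKM of 1 in KO AL alone and so had to be lower in KO DR. Of 23 tested interferon genes 1 was called, where 0.5% of all tested members were. Bst2, the virus-tethering protein, rose by 0.53 (SE 0.09), from 5.50 to 7.96, a call that needed SDs of 3.01% and 5.81%.

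**Figure D4:**
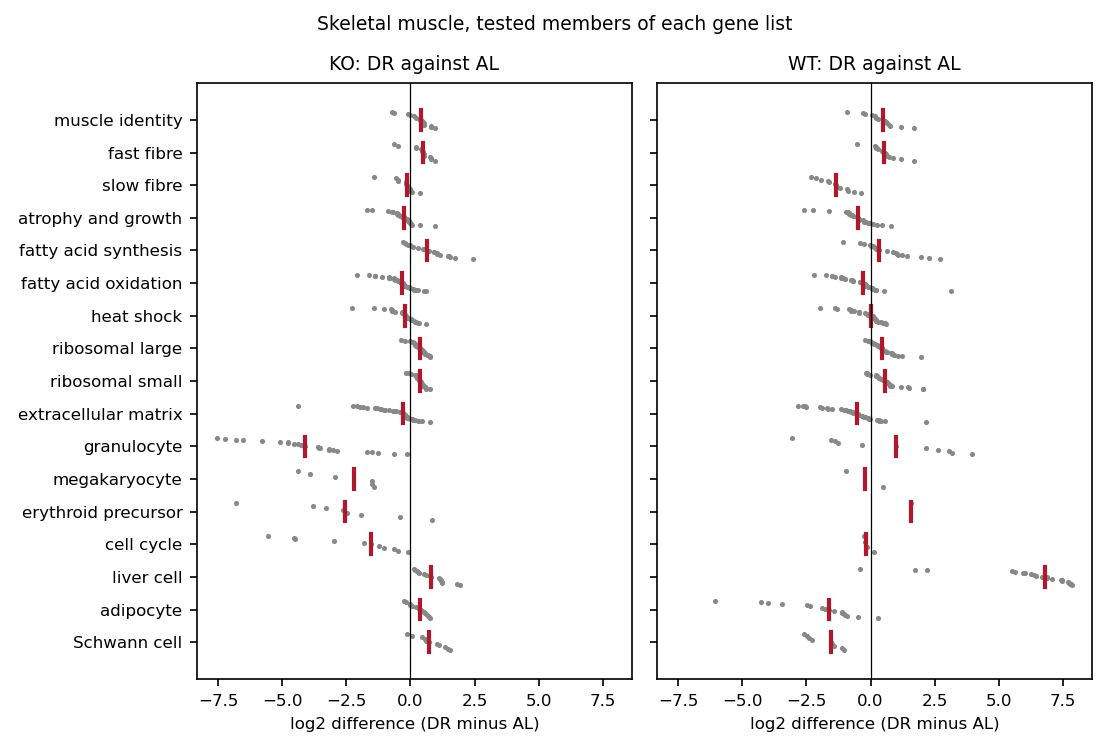
Log2 differences of DR from AL for the tested members of 17 gene lists in KO (left) and WT (right) skeletal muscle; each grey point is a gene and each red bar the list median. In KO the neutrophil (granulocyte), megakaryocyte, erythroid precursor and cell cycle lists lie to the left, with medians of -4.13, -2.22, -2.55 and -1.54; in WT the liver list lies to the right with a median of 6.79.

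The 30 increases were mostly not protein-coding genes with a standard symbol. Only 8 carried such a symbol, and the other 22 were predicted genes, small RNAs, transfer RNAs or joined entries. Of the 30, 15 were under 1 on the log2 scale, 28 had an SD under 20% of the FPKM in at least 1 KO group, and 11 stood with the minimum SD. Over all members such small SDs occurred in 5.99% in KO AL and 7.04% in KO DR. Besides Elovl6 and Bst2 the 8 were Slc35g1 (1.39, SE 0.27), the RNA export gene Alyref2 (1.30, SE 0.32), the myelin-associated gene Pllp (0.59, SE 0.06), the lysophosphatidic acid receptor gene Lpar6 (0.57, SE 0.04), the small GTPase gene Rras2 (0.39, SE 0.11) and the phosphatase inhibitor gene Ppp1r14c (0.23, SE 0.06).

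Mitochondrial transfer RNAs were called in opposite directions. The entry mt-Td had an FPKM of 2445 in KO AL and 194 in KO DR (-3.66, SE 0.03) and mt-Tp had 3008 and 850 (-1.82, SE 0.02), but mt-Tf had 268 and 501 (0.90, SE 0.03). Transfer RNAs are very short for this kind of library, and the SDs of mt-Td were 1.26% and 1.21% of its FPKM in the KO groups. The joined entry of Mir700,Rcan3 had an FPKM of 52.5 in WT AL, 1.14 in WT DR, 0.961 in KO AL and 61.0 in KO DR, so it rose by 5.99 in KO (SE 1.67) and fell by 5.53 in WT (SE 1.54).

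The same diet contrast in WT used no library of the KO contrast. Of the 70 KO calls 11 were also called in WT, which is 15.7% of the KO calls and 5.58% of the WT calls. In 7 the direction was the same, among them Elovl6, Btg1 and Irf2bp2, and in 4 it was opposite, among them Pdp2 and Hist1h4i. Hist1h4i, a histone gene, had an FPKM of 13.3 in WT AL, 27.2 in WT DR, 16.4 in KO AL and 10.7 in KO DR, with SDs small enough that its differences of -0.61 in KO and 1.03 in WT were both called.

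The difference between the responses was tested directly in 14547 entries and called in 54 (0.371%), with the KO response above the WT response in 30 (0.206%) and below it in 24 (0.165%). Over all entries tested it was above in 54.9% and below in 45.1%. WT was itself called in 46 of the 54 and KO in 10. Where the sizes could be compared, the larger response was that of WT in 41 of 47. S100a9 (-6.55, SE 1.47) and Ngp (-7.94, SE 2.03) were among those whose larger response was in KO. For Mbp the WT response was -2.50 (SE 0.67) and the KO response 1.55 (SE 0.62), a difference of 4.05 (SE 0.91). Lep, the hormone leptin, fell by 4.29 in WT (78.7 to 4.03), while KO had an FPKM of 9.24 in AL and 12.4 in DR. Of the 24 with the KO response below that of WT, 13 had a WT DR liver level at least 20 times that in WT DR muscle, among them Alb, Apoa1 and Fga.

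**Figure D5:**
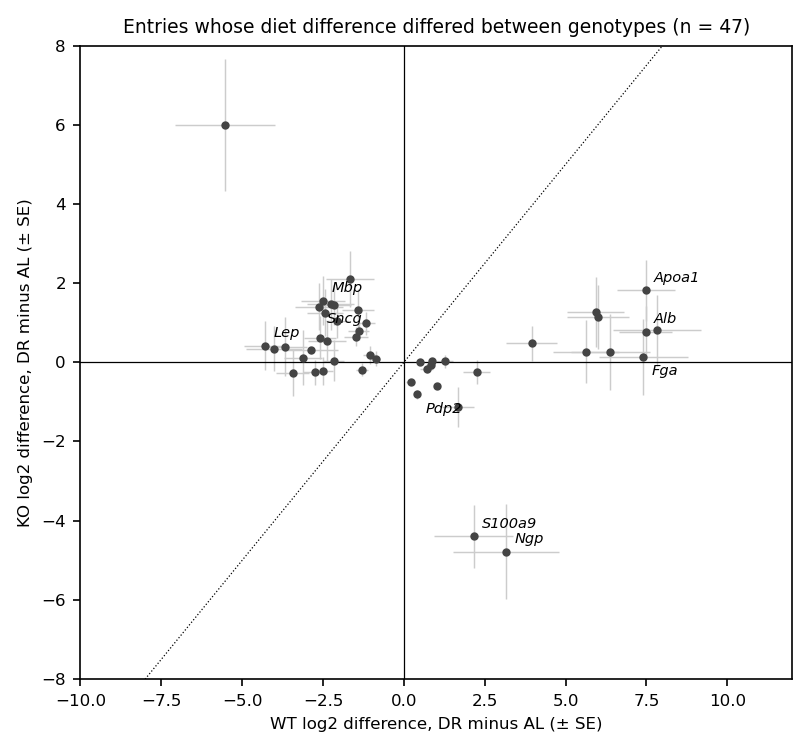
Log2 difference of DR from AL in WT (x axis) and KO (y axis) skeletal muscle for the 47 entries called for a differing response and tested in both genotypes; bars are SEs and the dotted line is equality. In 41 of the 47 the WT difference is the larger in size, and Ngp (-4.78) and S100a9 (-4.40) are the lowest points on the KO axis.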

How the data were processed

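RNA from skeletal muscle of female mice was sequenced on an Ion Proton instrument after poly(A) selection. Per the study's methods the authors trimmed reads with cutadapt 1.5 and other tools, aligned them to GRCm38 with BBMap and ran Cuffdiff 2.2.1. The deposited values are FPKM per group with the authors' 95% interval. Of 43 libraries in 16 groups, 11 are muscle. The methods give as many mice as muscle libraries in each group. Depth is unknown, and the tests cover the spread in the authors' intervals only.

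Groups follow the sample labels. From each interval an SD was taken as its upper half-width over 2. Log2 ratios were tested by a two-sided Wald test (delta-method SE, normal reference, Benjamini-Hochberg adjustment over all tested entries, FDR of 10%) after a filter of FPKM above 0 in every group and at least 1 in any. A test on values per library was planned for a table that had them. Single p-values are not printed, since they rest on intervals from few libraries.

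The alternatives are those named in the closing section. Further planned ones were a cutoff at FDR 5%, no filter, an FPKM of at least 5, and joined entries left out. The minimum SD of 20% and the removal of marrow-related entries were added after the values were seen.

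The members and the 38 gene lists were chosen with earlier results of these data known, and 5 more lists (neutrophil, red cell precursor, megakaryocyte, bone and cartilage, immunoglobulin) after the values were seen. Named by rule were Irs1, list members called in the KO contrast or for the difference between genotypes, the 2 most abundant members of lists without calls, up to 15 called single genes per direction with the largest difference (8 for the difference between genotypes) that had an FPKM of at least 1 in both KO groups and no predicted-gene or small RNA name, 4 genes the study names, and the 5 most abundant called entries per direction. Other genes, such as Camp, Cd177, Gp5, Ighg3, Ighv2-9-1, Btg1, Irf2bp2, Six4, Fitm2, Hist1h4i and list members that were not called, were chosen after their values were seen. Positions are from the GENCODE annotation of GRCm38 and promoters from RefSeq. Tools were Python 3.11.15, scipy 1.17.1, numpy 2.4.6, matplotlib 3.10.9 and pandas 2.3.3, and the test was checked on simulated data.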

Additional observations from a re-analysis of the deposited data

Results flagged for a closer look

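The response to restriction differed between KO and WT muscle in 54 entries by the test of the difference itself (Wald test with Benjamini-Hochberg adjustment at an FDR of 10%). Values below are the KO response less the WT response on the log2 scale, for the named genes among them. It was negative for the liver genes Alb (-6.71), Apoa1 (-5.66), Apoa2 (-4.87), Apoc1 (-5.36), Fga (-7.26) and Serpina1a (-7.01), for the neutrophil genes Ngp (-7.94) and S100a9 (-6.55), and for Pdp2 (-1.22) and the predicted gene Gm20721 (-0.81). The liver genes were far higher in WT DR muscle than in the other 3 groups, and for Alb the FPKM was 5.52 in WT AL, 987 in WT DR, 13.6 in KO AL and 23.3 in KO DR.

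It was positive for the adipose genes Lep (4.71), Sncg (4.03), Sfrp5 (4.36), Npr3 (3.18), Serpina3c (3.62) and Wisp2 (4.08), for the matrix and antioxidant genes Thbs2 (2.28) and Sod3 (2.49), for the myelin genes Mbp (4.05), Prx (3.73) and Pllp (1.89), and for Cep85l (3.25), Edem1 (1.10), Lpar6 (0.98) and the joined entry that holds Snhg1 (3.18). For most of these WT AL was the high group; Lep had an FPKM of 78.7 in WT AL and 4.03 in WT DR. The part that liver, fat or nerve tissue took in the WT libraries was not tested. With no SD allowed under 20% of the FPKM 33 of the 54 were called, and Pdp2, Gm20721, Lpar6, Pllp, Edem1, Cep85l and the Snhg1 entry were not.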

How the results depend on the processing

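No paired analysis was possible because the table gives 1 value per group and none per library. For the same reason leaving out each replicate was not run. In the KO contrast 70 entries were called (30 higher, 40 lower). Intervals that do not overlap gave 123 (54, 69), a t distribution 6 (2, 4), a pseudocount of 1 gave 63 lower, a minimum log2 difference of 1 gave 43 with 15 higher, the SD divided by the square root of the libraries 377 (143, 234), and the minimum SD of 20% gave 34 (11, 23). In WT 197 entries were called (112 higher, 85 lower). Intervals that do not overlap gave 179 higher, a t distribution 2 (2, 0), a pseudocount of 1 gave 186 higher, the divided SD 897 (433, 464), a linear scale 101 (63, 38), and leaving out entries high in other tissues 97 with 32 higher. Beside the 0 lower calls with the t distribution, 346 entries were lower at an unadjusted p under 0.05 in the Wald test. The responses differed in 54 entries (30, 24). A t distribution gave 3 (1, 2), a pseudocount of 0.1 gave 93 with 56 negative, a pseudocount of 1 gave 170 with 128 negative, the divided SD 403 (210, 193), a linear scale 43 negative, leaving out entries high in other tissues 11 negative, and the minimum SD 33 (19, 14). The other settings gave counts within 1.5 times. The 70 KO calls were also made with either pseudocount and with the divided SD, 62 at an FDR of 5% and 34 with the minimum SD. Centring on the median turned the sign of Akt2 (-0.0026), Lamp1 (-0.0174), Map1lc3a (-0.0020) and Sqstm1 (-0.0123), none of them called. Of 31 named KO calls 26 were lost with the t distribution and 16 with the minimum SD. The t distribution assumes few degrees of freedom, and the minimum SD raises the SE of narrow intervals without changing the difference. Why calls were lost with other settings was not tested. Of 602 list medians recomputed over 43 lists 3 moved. The precision is set by the intervals, whose median SD was 37.8% of the FPKM in KO AL and 35.0% in KO DR.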

Other observations

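The immediate early genes, which muscle activity and handling induce, gave 0 calls in 26 tested in KO muscle, where 0.5% of all tested members were called. A negative difference was found in 18 of the 26 (47.1% over all tested members). By the Wald test 3 had an unadjusted p under 0.05 with a negative difference (1.22% over all tested members). With a positive difference 1 did (0.792%). Atf3 had an FPKM of 4.43 in WT AL, 3.47 in WT DR, 9.53 in KO AL and 3.21 in KO DR (-1.57, SE 0.60), and Nr4a2 had 0.724, 0.515, 0.860 and 5.17 (2.59, SE 1.13). Klf10, a growth factor response gene, had 15.6, 10.7, 12.7 and 6.71 (-0.92, SE 0.27). The class II antigen presentation genes had a median of 0.15 over 7 tested in KO and of -1.71 in WT. H2-Aa had an FPKM of 142 in WT AL, 38.8 in WT DR, 40.6 in KO AL and 38.0 in KO DR, so WT AL was the high group.

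S100a9 was higher in KO AL than in KO DR in liver as well, with an FPKM of 58.8 (28.9 to 88.7) and 17.9 (6.48 to 29.4). These intervals overlapped slightly, and S100a9 in brain and white adipose tissue was at or under 3.16 in both groups. Its partner S100a8 was nearly equal in liver, with 19.2 (3.60 to 34.8) in KO AL and 15.1 (0.387 to 29.9) in KO DR. Lcn2 had 126 (63.2 to 190) and 45.1 (17.3 to 72.8) there, also with overlapping intervals. Elovl6 was higher in KO DR than in KO AL in white adipose tissue, with 160 (0 to 365) and 58.9 (28.9 to 88.8), and in liver, with 9.30 and 3.60. These values in other tissues were not tested.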
